A study of Mus musculus with 12 samples.

Results

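The 10 immediate early genes followed here were measured through RNA sequencing of mouse dorsal hippocampus at postnatal day 7: Fos, Fosb, Junb, Arc, Egr1, Egr3, Npas4, Nr4a1, Nr4a3 and Ier2. They were chosen by gene symbol, and all 10 were found among the 52634 genes of the deposited table and passed the filter on low counts, which kept 17631 genes. In the control genotype, SERTfl/fl, Slc6a4 (which encodes the serotonin transporter) is flanked by loxP sites. The other genotype, SERTPyramid, has that transporter deleted in pyramidal neurons, and the series title places the perinatal transporter in those of CA3. Both names follow the genotype labels, and the sample titles write them as SERTfl/fll and SERTPyramid∆. The sources used here do not name the driver of the deletion. There were 4 groups, control and SERTPyramid libraries labelled female and labelled male, with 3 libraries each and tissue pooled from 4 mice in each library. Whether pools shared litters is not given, so a p-value reflects spread among these libraries only, which may be technical.

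Immediate early genes are transcribed within minutes of a stimulus, without new protein synthesis. In neurons, calcium entry and ERK signalling act on CREB, SRF and MEF2 at their promoters. Most encode transcription factors that carry the response on to later genes, while Arc encodes a synaptic protein involved in receptor trafficking. Their transcripts are short-lived and are widely used as a record of recent neuronal activity.

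Library totals ran from 18747249 to 25522347 counts. Slc6a4 had 0 to 17 counts in each library, with 5, 16 and 9 in labelled-female controls, 12, 3 and 1 in labelled-female SERTPyramid, 0, 17 and 12 in labelled-male controls and 8, 3 and 7 in labelled-male SERTPyramid, which is too shallow to check the genotype. Judged by Xist and 4 Y-linked genes, 10 of 12 libraries did not match their labelled sex, the exceptions being control replicate 1 of both labelled sexes. Female and male below are therefore the label of a library, and no library was moved. By these transcripts each control group held libraries of both sexes, while each SERTPyramid group held 1 sex, opposite to its label. Within each labelled sex the genotypes thus also differed in sex make-up, and its part in genotype differences was not tested. Control replicate 3 labelled female had 527 Xist counts beside 2849 Y-linked counts. The tissue's defining markers were present: all 10 pyramidal neuron markers (among them Neurod6 and Slc17a7) and all 6 dentate granule markers (among them Prox1) passed the filter, and summed pyramidal markers ran from 2247 to 2587 CPM (counts scaled to library size by TMM, as are all CPM here) over the 12 libraries.

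Set out per kilobase of exon, so that genes of different length can be compared, the levels covered a wide range. Nr4a3, an orphan nuclear receptor gene of the NR4A family (chromosome 4, 48045153 to 48086447, plus strand, GRCm38), was highest, with a median of 55.7 CPM per kilobase and a range of 48.3 to 61.8. Next came the zinc-finger factors Egr3 (21.1, range 18.96 to 22.1) and Egr1 (17.5, range 16.03 to 19.99), whose ranges over the 12 libraries overlapped. Nr4a1 (11.7) and Ier2 (11.03), also overlapping, preceded Junb (8.96) and Arc (7.22), which overlapped each other. Fos stood at 3.66 CPM per kilobase, with a range of 2.75 to 4.24. The bHLH-PAS factor Npas4, selective for calcium signals in neurons, had 1.56 and Fosb 0.285 CPM per kilobase. From Nr4a3 to Egr3 the median fell 2.64-fold, and from Npas4 to Fosb 5.48-fold, with ranges that did not overlap. Exons of Junb overlap those of Prdx2 on the opposite strand. The library kit does not mark strand, and how reads in that overlap were counted is not given. The other 9 overlap no annotated exon of another gene.

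**Figure D1:**
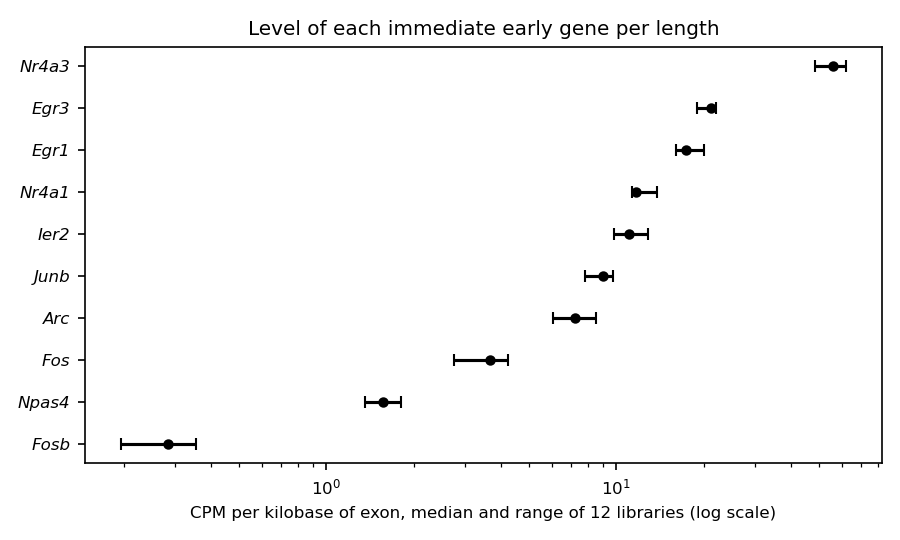
Level of the 10 immediate early genes as CPM per kilobase of exon on a log axis; points are medians and bars the range of the 12 libraries. Nr4a3 is highest at 55.7 and Fosb lowest at 0.285.

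Promoter windows of 300 bases, from 250 before to 50 after the start, were given by RefSeq (GRCm38.p6) for 6 of the 10: Fos, Fosb, Junb, Npas4, Nr4a1 and Nr4a3. The windows of 4 are printed because the results below turn on these genes. Capitals mark the CRE core, the letters TGACG on either strand, which is part of the full CREB site TGACGTCA, and the TATA motif TATAAA on the plus strand of the gene. They lie at chr4:48045055-48045354 (plus strand) for Nr4a3, chr19:4989922-4990221 (minus) for Npas4, chr15:101266596-101266895 (plus) for Nr4a1 and chr12:85473640-85473939 (plus) for Fos.
Nr4a3: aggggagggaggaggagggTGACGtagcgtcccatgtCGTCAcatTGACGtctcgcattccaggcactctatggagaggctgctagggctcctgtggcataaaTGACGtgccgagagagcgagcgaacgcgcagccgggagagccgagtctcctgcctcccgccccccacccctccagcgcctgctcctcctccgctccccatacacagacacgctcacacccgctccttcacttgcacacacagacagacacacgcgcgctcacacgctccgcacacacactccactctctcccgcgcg
Npas4: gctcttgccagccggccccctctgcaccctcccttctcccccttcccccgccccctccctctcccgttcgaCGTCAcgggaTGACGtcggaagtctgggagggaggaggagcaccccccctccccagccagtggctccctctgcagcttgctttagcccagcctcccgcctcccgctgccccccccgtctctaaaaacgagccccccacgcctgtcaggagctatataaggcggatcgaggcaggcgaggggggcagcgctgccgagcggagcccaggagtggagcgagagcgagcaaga
Nr4a1: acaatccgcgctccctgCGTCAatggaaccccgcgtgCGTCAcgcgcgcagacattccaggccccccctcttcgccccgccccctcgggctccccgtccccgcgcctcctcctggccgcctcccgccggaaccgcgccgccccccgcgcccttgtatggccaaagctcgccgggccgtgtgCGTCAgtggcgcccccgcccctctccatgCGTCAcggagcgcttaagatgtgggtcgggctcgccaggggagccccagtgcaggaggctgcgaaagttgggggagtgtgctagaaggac
Fos: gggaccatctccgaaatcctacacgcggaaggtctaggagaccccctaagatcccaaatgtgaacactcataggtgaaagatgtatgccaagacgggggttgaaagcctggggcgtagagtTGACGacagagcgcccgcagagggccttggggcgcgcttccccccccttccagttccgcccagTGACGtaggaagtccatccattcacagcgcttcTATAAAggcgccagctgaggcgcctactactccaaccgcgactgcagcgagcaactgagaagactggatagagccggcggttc
All 6 windows held the CRE core, against 20.8 percent of the 32851 windows of the table: 4 matches each in Nr4a3 and Nr4a1, 2 each in Npas4 and Fos and 1 each in Fosb and Junb. The full site TGACGTCA was in 0 of the 6 (1.79 percent of all windows), as was the CArG box bound by SRF (1.63 percent). Sites more than 250 bases before the start lie outside these windows and were not searched. TATAAA was in Fos and Junb (8.32 percent of all), and GCGNGGGCG, an EGR site searched on both strands, in Fosb and Nr4a1 (5.55 percent). A match of letters is a description and not a bound site.

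The AP-1 genes were compared first between genotypes. Fos, whose protein pairs with Jun proteins in AP-1, had 8.49, 8.14 and 9.61 CPM in labelled-female controls and 9.97, 9.14 and 9.22 CPM in labelled-female SERTPyramid. In labelled males it had 7.25, 7.80 and 8.73 CPM in controls and 8.86, 7.57 and 6.46 CPM in SERTPyramid. The genotypes overlapped in both labelled sexes. The log2 fold change of SERTPyramid over control was 0.11 ± 0.11 (SE, adjusted p = 0.840) in labelled females and -0.06 ± 0.12 (SE, adjusted p = 0.999) in labelled males by edgeR. Fosb, the source of the full-length and truncated FosB proteins, was the lowest of the 10 and rested on 23 to 50 counts a library. It had 1.71, 1.89 and 1.90 CPM in labelled-female controls against 1.82, 2.22 and 1.58 in SERTPyramid, and 1.23, 1.73 and 1.55 CPM in labelled-male controls against 2.12, 2.10 and 1.27. Control replicate 1 and SERTPyramid replicate 3 were the lowest of the labelled males. Its 95 percent interval in labelled males ran from -0.21 to 0.74 on the log2 scale, the widest of the 10 genes. Junb, a partner of the Fos proteins, stayed between 18.0 and 22.4 CPM in every library, with log2 fold changes of 0.01 ± 0.08 and 0.03 ± 0.08 (SE) in labelled females and males.

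**Figure D2:**
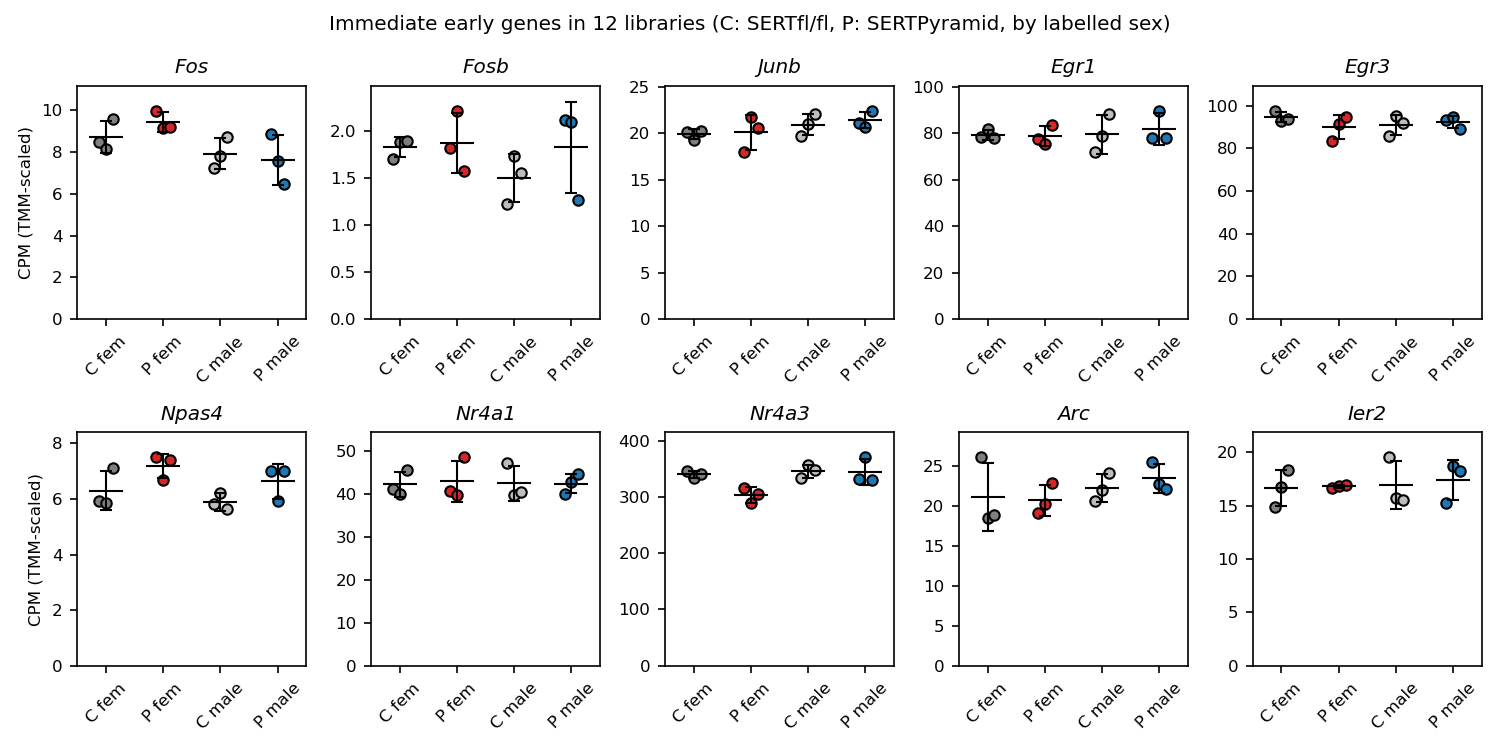
TMM-scaled CPM of each gene (vertical axes from 0) in the 12 libraries by genotype and labelled sex; points are libraries, lines and bars the mean and SD of 3. Only Nr4a3 in labelled females shows genotypes that do not overlap, at 289 to 316.5 CPM in SERTPyramid against 334.0 to 345 in controls. Of all tested genes, 9.38 percent were lower without overlap in labelled females.

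Among the zinc-finger factors, Egr1, widely used to mark active neurons, had 78.5, 81.9 and 77.9 CPM in labelled-female controls and 77.5, 75.3 and 83.8 in SERTPyramid. Labelled-male controls had 71.9, 78.7 and 88.5 CPM and SERTPyramid 78.0, 89.7 and 78.0. The range within labelled-male controls exceeded the difference between the genotype means in either labelled sex. Egr3, also needed for muscle spindle development, ranged from 83.6 to 97.5 CPM over all libraries, a ratio of 1.17, the smallest of the 10. Its log2 fold change was -0.08 ± 0.05 (SE, adjusted p = 0.746) in labelled females and 0.02 ± 0.05 (SE, adjusted p = 0.999) in labelled males by edgeR.

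Npas4 had a higher group mean in SERTPyramid in both labelled sexes, and neither difference passed the test. It had 5.91, 5.87 and 7.10 CPM in labelled-female controls and 7.49, 6.69 and 7.39 CPM in SERTPyramid. In labelled males controls had 5.81, 6.23 and 5.62 CPM and SERTPyramid 6.99, 5.91 and 7.01 CPM. The genotypes overlapped in both labelled sexes, in labelled females through control replicate 3 and SERTPyramid replicate 2 and in labelled males through control replicate 2 and SERTPyramid replicate 2. On the log2 scale SERTPyramid exceeded control by 0.20 ± 0.11 (SE, adjusted p = 0.702) in labelled females, 0.17 ± 0.12 (SE, adjusted p = 0.999) in labelled males and 0.18 ± 0.08 (SE, unadjusted p = 0.0341, adjusted p = 0.756) averaged over them, by edgeR. The averaged 95 percent interval was 0.015 to 0.352. The counts behind these values were 109 to 193 a library.

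The nuclear receptor genes were taken next. Nr4a3 had 345, 334.0 and 340.4 CPM in labelled-female controls and 316.5, 289 and 305 CPM in labelled-female SERTPyramid, so that the genotypes did not overlap. Labelled-male controls had 333, 356 and 348 CPM and SERTPyramid 331, 370.0 and 330.0 CPM, which overlapped. The labelled-female SERTPyramid libraries were the lowest 3 of all 12. Group means were 339.9 ± 5.64 and 304 ± 13.7 CPM (SD, n = 3) in labelled females and 346 ± 11.5 and 344 ± 22.8 CPM (SD, n = 3) in labelled males. In the fit of 12 libraries the labelled-female log2 fold change was -0.16 ± 0.05 (SE, 95 percent interval -0.27 to -0.05), with an unadjusted p of 0.00643 and an adjusted p of 0.530 by edgeR. The labelled-male value was -0.01 ± 0.05 (SE, adjusted p = 0.999), and the difference between the 2 was -0.15 ± 0.08 (SE, unadjusted p = 0.0539, adjusted p = 0.999 by edgeR). In a fit restricted to the 6 labelled-female libraries, Nr4a3 passed at an adjusted p of 0.0256 by edgeR, with a log2 fold change of -0.16 ± 0.04 (SE). That fit called 2.43 percent of 17108 genes, and 0.777 percent as lower. Leaving out each of the 6 libraries in turn there, Nr4a3 passed in 2 of 6 fits, with adjusted p from 0.00763 without SERTPyramid replicate 1 to 0.243 without SERTPyramid replicate 2. It passed without SERTPyramid replicate 3 as well (0.0262), but not without control replicate 1 (0.0892), 2 (0.0783) or 3 (0.103). Without control replicate 1 of both labelled sexes the fit of the other 10 libraries gave -0.15 ± 0.06 (SE, adjusted p = 0.767 by edgeR), and 0 of the 10 genes were called in any comparison. Genotypes that did not overlap, with SERTPyramid lower, were found for 1 of the 10 genes (Nr4a3) and 9.38 percent of tested genes in labelled females. With SERTPyramid higher they were found for 0 of the 10 (9.5 percent of genes). In labelled males 0 of the 10 were separated, against 3.67 percent of genes with SERTPyramid higher and 3.26 percent lower.

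Among markers of cell types, 4 of the summed lists were lower in labelled-female SERTPyramid without overlap, and the other summed cell type lists overlapped. Of single tested genes, 9.38 percent were lower without overlap in labelled females, and no such share was computed for summed lists. The summed level of the 6 dentate granule markers ran from 331.5 to 399.8 CPM in labelled-female controls and from 296 to 312 CPM in labelled-female SERTPyramid, against 301 to 345 and 323 to 351 CPM in labelled males. The 7 endothelial markers summed to 254.5 to 266 CPM and 226 to 248 CPM in labelled-female controls and SERTPyramid, the 6 pericyte and smooth muscle markers to 223 to 229 and 210.1 to 218.5 CPM, and the 5 red blood cell markers to 58.4 to 67.5 and 44.2 to 52.9 CPM. In labelled males the genotypes overlapped for these lists. There controls and SERTPyramid had 245 to 285 and 252 to 297.5 CPM (endothelial), 199.7 to 225.8 and 204 to 238 CPM (pericyte and smooth muscle) and 50.9 to 56.6 and 47.8 to 68.7 CPM (red blood cell). The 6 choroid plexus markers ran from 963 to 1295 CPM in labelled-female controls and from 26.4 to 1233 CPM in labelled-female SERTPyramid. The 10 pyramidal markers, which overlapped, ran from 2404 to 2587 and from 2247 to 2509 CPM in those groups. Meningeal fibroblast markers overlapped at 379 to 408 CPM in labelled-female controls and 402 to 446 CPM in SERTPyramid, as did interneuron markers at 453 to 487 and 461.5 to 499.6 CPM. The summed astrocyte (2013 to 2153 and 2055 to 2112 CPM) and microglial markers (143 to 165 and 151 to 157 CPM) overlapped too. In labelled females 1 of 10 pyramidal, 5 of 6 interneuron and 3 of 6 astrocyte markers lay above 0 on the log2 scale. So did 2 of 6 microglial, 3 of 6 fibroblast and 2 of 6 pericyte and smooth muscle markers. Of the dentate, endothelial, red blood cell and choroid plexus markers 0 did. Above 0 in labelled males were 6 of 6 dentate, 2 of 7 endothelial, 3 of 5 red blood cell and 3 of 6 choroid plexus markers. None of these markers was at 0 in any library. By edgeR 0 of them were called in the 12-library fit. In the labelled-female libraries alone, where edgeR called 2.43 percent of 17108 genes, C1ql2 of the dentate list (-0.33 on the log2 scale, adjusted p = 0.0483) and Hbb-bs of the red blood cell list (-0.32, adjusted p = 0.0211) were called lower. Gfap of the astrocyte list (0.165, adjusted p = 0.024 by edgeR) was called higher there. C1ql2 lay at 0.42 ± 0.10 in labelled males in the 12-library fit (SE, unadjusted p = 0.000395, adjusted p = 0.999 by edgeR). Its difference between the labelled sexes was -0.75 ± 0.14 (SE, adjusted p = 0.585 by edgeR). The part of these markers in the lower Nr4a3 was not tested, and in bulk tissue fewer cells of a type and less RNA per cell cannot be told apart.

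Nr4a1, induced by many stimuli inside and outside the brain, ranged from 39.7 to 48.5 CPM, and its log2 fold changes were 0.03 ± 0.08 and 0.00 ± 0.08 (SE) in labelled females and males. Arc had 26.1, 18.5 and 18.9 CPM in labelled-female controls and 19.1, 20.3 and 22.8 CPM in SERTPyramid, with 20.7, 22.0 and 24.1 CPM and 25.5, 22.8 and 22.1 CPM in the labelled-male groups. Control replicate 1 labelled female, 1 of the 2 libraries whose sex-chromosome transcripts matched their label, held the highest Arc level of all 12. The labelled-female log2 fold change of Arc was -0.03 ± 0.12 (SE) with that library and 0.15 ± 0.09 (SE) without control replicate 1 of both labelled sexes (adjusted p = 0.968 and 0.834 by edgeR). Ier2, a small nuclear protein gene induced by growth factors and activity, had 14.9, 16.7 and 18.3 CPM in labelled-female controls, 16.6, 16.9 and 16.9 CPM in SERTPyramid, 19.5, 15.7 and 15.5 CPM in labelled-male controls and 15.2, 18.7 and 18.3 CPM in SERTPyramid.

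Across the 10 genes, 0 passed an adjusted p of 0.05 in any of the 4 comparisons of the 12-library fit in edgeR, DESeq2 or limma voom. Those edgeR comparisons called 0.0 percent of the 17631 genes. At an unadjusted p under 0.05 edgeR gave 1 of the 10 in labelled females (Nr4a3), 0 in labelled males, 0 for the difference between labelled sexes and 2 for the average over them (Nr4a3 and Npas4), against 8.04, 3.16, 4.45 and 6.49 percent of all tested genes. In labelled females 6 of the 10 lay above 0 with a median of 0.01, and in labelled males 8 of 10 with a median of 0.03. The median over all genes was -0.0004 and 0.0016. Leaving Fosb aside, the 95 percent intervals of the other 9 lay within -0.28 to 0.43 in labelled females and -0.31 to 0.41 in labelled males on the log2 scale. A p that misses the threshold does not show equal levels, and differences within those bounds remain possible.

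**Figure D3:**
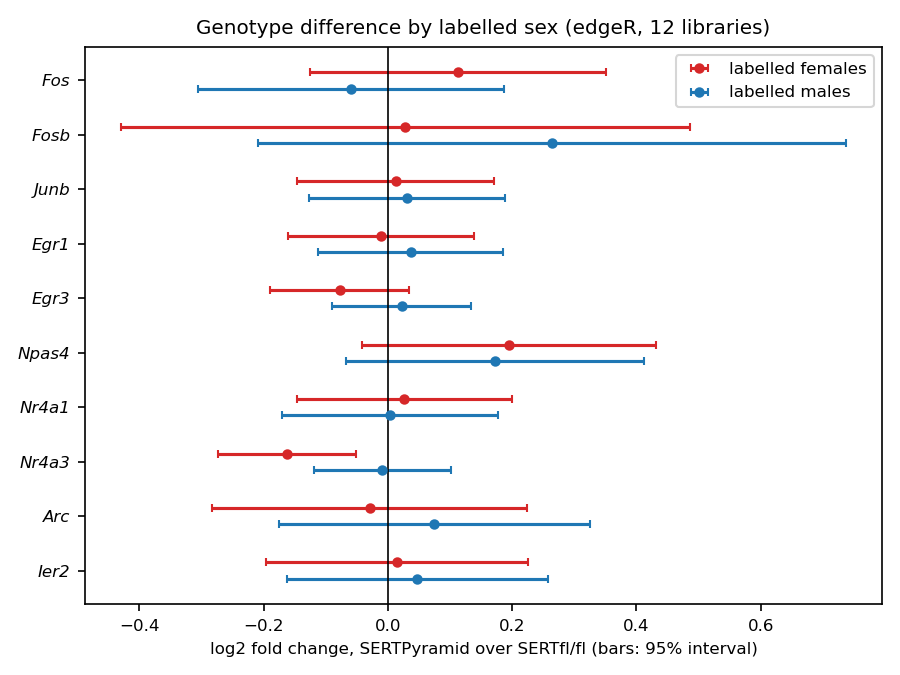
Log2 fold change of SERTPyramid over SERTfl/fl for each gene in labelled females (red) and labelled males (blue) from the 12-library edgeR fit; points are estimates and bars 95 percent intervals. The labelled-female interval of Nr4a3, -0.27 to -0.05, lies below 0, and the other 19 include 0.

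The spread between libraries was then set beside the error of counting alone. The coefficient of variation (CV, SD over mean) of Fosb over the 12 libraries was 18.0 percent, against 16.04 percent from counting alone. Junb had 5.97 against 4.61 percent and Npas4 10.5 against 8.23 percent. Arc varied more, with a CV of 11.5 percent against 4.49 percent from counting, above the CV of 92.5 percent of 2852 tested genes within 1.5-fold of its level. Nr4a3 had a CV of 6.58 percent against 1.15 percent from counting, above 79.1 percent of 621 such genes. The corresponding shares were 81.5 percent for Nr4a1, 79.2 for Fos, 77.9 for Egr1, 73.3 for Ier2, 49.2 for Npas4, 43.2 for Fosb, 41.8 for Egr3 and 35.5 for Junb. The highest library exceeded the lowest by 1.17-fold (Egr3) to 1.81-fold (Fosb).

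**Figure D4:**
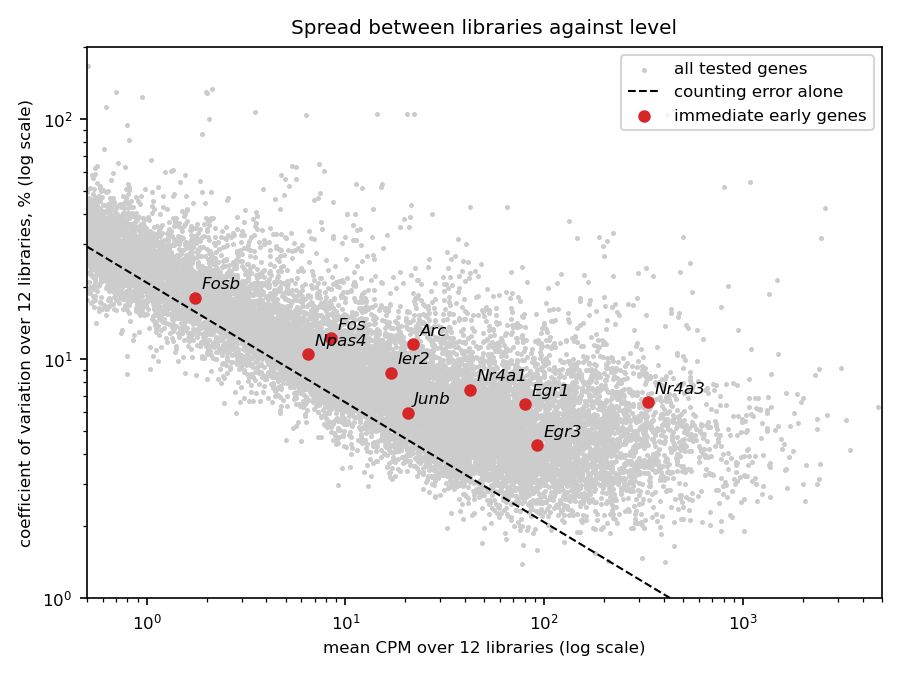
CV over 12 libraries against mean CPM, both on log axes, for all tested genes (grey) and the 10 immediate early genes (red); the dashed line is counting error alone. Fosb lies close to the line, and Nr4a3 far above it at 6.58 percent.

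From library to library, pairs of the 10 genes were correlated with both signs. Over the 45 pairs, Pearson's r of log2 CPM across the 12 libraries had a median of -0.07 and ran from -0.58 to 0.66, with 21 pairs above 0. Taking deviations from the 4 group means gave a median of 0.02. After adjustment over the 45 pairs by Benjamini-Hochberg 0 passed, with a smallest adjusted permutation p of 0.627 for Pearson's r and 0.462 for Spearman's rho. At an unadjusted p under 0.05, 2 passed by Pearson and 4 by Spearman. The highest r was between Nr4a1 and Ier2 (r = 0.66, permutation p = 0.0207; rho = 0.60, permutation p = 0.0429; adjusted 0.627 and 0.462). It was 0.73 without the 2 libraries farthest from the median of Nr4a1, 0.585 without control replicate 1 of both labelled sexes and 0.68 within groups. Fos and Fosb gave r = 0.57 (permutation p = 0.0558) and rho = 0.43 (permutation p = 0.169), adjusted 0.627 and 0.634. Without the 2 libraries farthest in Fos, their r was -0.08, so the relation over the 12 libraries rests on those libraries. It was 0.47 without control replicate 1 of both labelled sexes and 0.62 within groups. The lowest r was between Npas4 and Nr4a3, with r = -0.58 (permutation p = 0.0480) and rho = -0.59 (permutation p = 0.0497), adjusted 0.627 and 0.462. Their r was -0.52 without the 2 farthest libraries and -0.18 within groups.

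**Figure D5:**
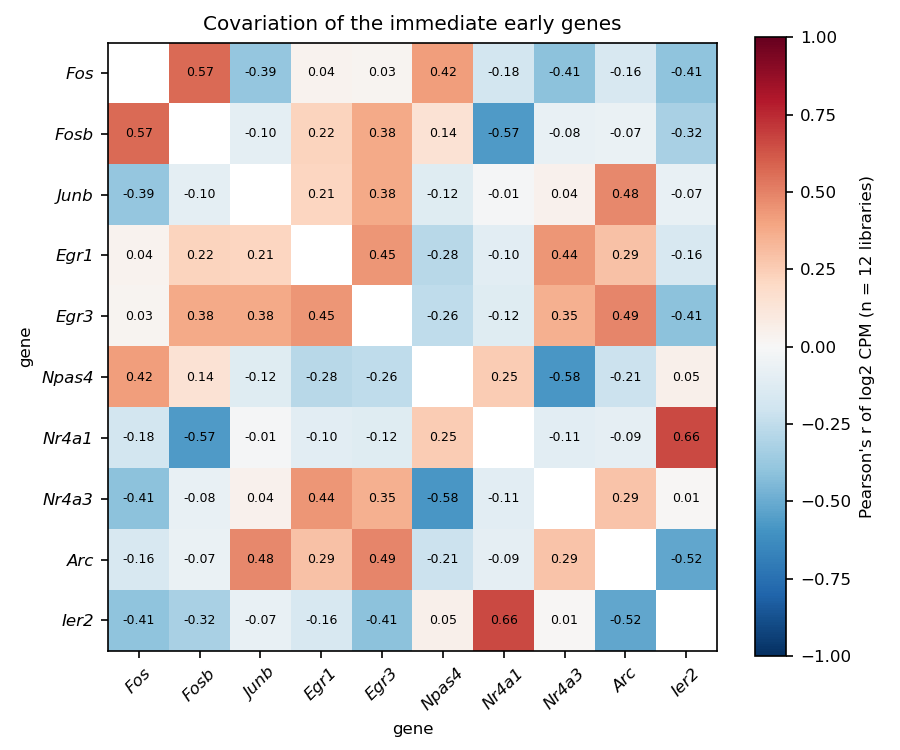
Pearson's r of log2 CPM across 12 libraries for each pair of the 10 genes, coloured from -1 to 1. Both signs are mixed over the map, from -0.58 (Npas4 with Nr4a3) to 0.66 (Nr4a1 with Ier2).

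No library was high or low for the whole class. The number of the 10 genes above their own mean over the 12 libraries ran from 3 (SERTPyramid replicate 1 labelled female and control replicate 1 labelled male) to 8 (SERTPyramid replicate 2 labelled male). The median deviation in a library ran from -0.085 to 0.069 on the log2 scale. Correlation of a gene with the mean of the other 9, standardized, was highest for Egr3 (0.48) and Egr1 (0.40) and lowest for Ier2 (-0.33), as a description over 12 libraries. The 10 other genes most like the mean of all 10, among 12704 ranked, were Fam53c (r = 0.87), Scfd2 (0.82), Cldn12 (0.82), Kcns2 (0.81), Zbtb44, Gmppb, Elovl4, Fam19a2, Trabd2b and Prrg1 (0.75), over 12 libraries. They were picked for that r, so it is no test.

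The wider activity-regulated program was described in the same way. Of 39 other rapid immediate early genes 38 were tested and 0 were called in any comparison. Jund, the other, had 0 to 6 counts. Overlap of its exons with those of other genes was not examined, so these counts alone do not show that it was unexpressed. In labelled females 12 of the 38 lay above 0, with a median of -0.04. The smallest p values were those of Zfp36, which promotes decay of AU-rich mRNAs (0.44 ± 0.19 SE, adjusted p = 0.569 by edgeR), Tiparp (-0.20 ± 0.09 SE) and Trib1 (-0.19 ± 0.09 SE). In labelled males 22 lay above 0, with a median of 0.01, led by the stress-response gene Gadd45g (0.28 ± 0.10 SE, adjusted p = 0.999 by edgeR). Nr4a2, the third NR4A gene, was next, with 96.9 ± 10.5 and 82.5 ± 7.55 CPM (SD, n = 3) in labelled-male controls and SERTPyramid. Its log2 fold change there was -0.23 ± 0.08 (SE, unadjusted p = 0.0135, adjusted p = 0.999 by edgeR), and in labelled females it had 86.1 ± 5.63 and 89.9 ± 6.05 CPM (SD, n = 3). Its difference between the labelled sexes was 0.30 ± 0.12 (SE, adjusted p = 0.999 by edgeR), of the opposite sign to that of Nr4a3.

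Of 15 delayed activity-regulated genes, which follow the first wave and act largely outside the nucleus, 0 were called. In labelled females 4 lay above 0, with a median of -0.05, and in labelled males 11, with a median of 0.03. Nrn1, a neurite-outgrowth factor gene, had the smallest p in labelled females (-0.16 ± 0.08 SE, adjusted p = 0.646 by edgeR). Of 28 upstream signalling genes 0 were called in the 12-library fit. Of these, 12 lay above 0 in labelled females and 9 in labelled males, each with a median of -0.02. Crtc2, a CREB coactivator gene, had a mean of 29.2 ± 0.881 CPM in labelled-female controls and 33.99 ± 1.16 CPM in SERTPyramid (SD, n = 3). It did not pass in the 12-library fit (0.22 ± 0.12 SE on the log2 scale, edgeR adjusted p = 0.682). In the labelled-female libraries alone it was higher by 0.22 ± 0.06 (SE, edgeR adjusted p = 0.04), in a fit that called 2.43 percent of 17108 genes. Of 10 heat shock and stress genes, which respond to tissue handling among other stimuli, 0 were called and 3 lay above 0 in labelled females. Their summed level was 1119 to 1170 CPM in labelled-female controls and 1077 to 1134 CPM in SERTPyramid.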

How the data were processed

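The authors deposited raw counts of reads per Ensembl gene for 12 libraries, made from total RNA with an Illumina TruSeq RNA kit, which does not mark strand. The submitters' processing notes name mm10 as the build. Aligner, counting settings and annotation: not given in the sources used here. The table names 52634 genes and no other entries, and 0 columns were left unmapped.

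Groups came from the titles. Genes passing filterByExpr were scaled by TMM and tested by edgeR 4.0.16 (quasi-likelihood F test, robust dispersion, R 4.3.3) with all 12 libraries in 4 groups. Adjusted p is by Benjamini-Hochberg over 17631 genes, with a threshold of 0.05. Each SE was derived from the F statistic (size of the log2 difference divided by the root of F). Exon lengths and coordinates came from GENCODE M21 (GRCm38), which matched 52401 gene identifiers. Correlations were taken on log2 CPM (prior count 2), with 2-sided permutation tests of 100000 resamples. Counting error and intervals cover the libraries measured only. The tests were tried on simulated data. The members and lists were chosen with earlier results of these data known. All 10 genes are named, as are the 10 genes most like their mean (mean log2 CPM of at least 1, predicted models passed over). In the lists the rule was to name members past the threshold and otherwise up to 3 with the smallest p. Only some of the latter are given above. A gene of the upstream signalling list that the rule would name is not reported here. Libraries of a group differed beyond sampling noise (chi-square over degrees of freedom 2.47 to 13.5).

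Alternatives were RLE scaling, no filter, 1 CPM in 6 libraries, DESeq2 1.42.0, limma 3.58.1 voom, a replicate block, the libraries of 1 labelled sex alone, each library left out, and control replicate 1 of both labelled sexes left out. Refits of the labelled-female libraries alone with each left out were added after the data were seen.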

Additional observations from a re-analysis of the deposited data

How the results depend on the processing

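With all genes that had any count kept, edgeR called 103 genes in labelled females, 5 in labelled males, 14 for the difference between them and 66 for the average, against 0 with the filter, and 0 of the 10 immediate early genes. The 6 labelled-female libraries alone called 415 genes and 1 of the 10 (Nr4a3). With each library left out, the counts ran from 0 to 2 in labelled females, 0 to 0 in labelled males and for the difference, and 0 to 144 for the average, both highest without SERTPyramid replicate 2 labelled male, and 0 of the 10 were called. The median r over pairs ran from -0.095 to 0.016. Replicate numbers do not name shared mice or days, and same-numbered libraries deviated together with r from -0.225 to 0.234; a replicate block called 0 genes in every comparison and gave Nr4a3 -0.162 (adjusted p = 0.534 by edgeR).

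Of 795 values of the 10 genes under alternatives, 707 kept direction and side of the threshold, 3 (Nr4a3 in labelled-female libraries alone) passed it and 85 turned sign, with the cause not tested. Without control replicate 1 of both labelled sexes, labelled females gave Fosb -0.016, Arc 0.152 and Ier2 -0.056, and labelled males Junb -0.006, Egr1 -0.028 and Egr3 -0.014. The difference gave Junb 0.028, Arc 0.123, Egr1 0.011, Npas4 -0.01 and Nr4a1 -0.074, and the average Fos -0.008 and Egr1 -0.022. Labelled females alone without control replicate 1 gave Fosb -0.02, Arc 0.148 and Ier2 -0.06. Voom gave Arc 0.019 in labelled females, Junb 0.012 and Nr4a1 -0.044 for the difference, and Fos -0.003 and Egr1 -0.012 for the average. DESeq2 gave Nr4a1 -0.000432 in labelled males. With each library left out, labelled females ran from -0.101 to 0.138 for Fosb, -0.046 to 0.091 for Junb, -0.116 to 0.152 for Arc, -0.053 to 0.021 for Egr1, -0.066 to 0.088 for Nr4a1 and -0.056 to 0.091 for Ier2. Labelled males ran from -0.179 to 0.049 for Fos, -0.006 to 0.072 for Junb, -0.032 to 0.121 for Egr1, -0.014 to 0.052 for Egr3, -0.047 to 0.085 for Nr4a1, -0.063 to 0.02 for Nr4a3 and -0.009 to 0.157 for Ier2. The difference ran from -0.077 to 0.058 for Junb, -0.192 to 0.076 for Arc, -0.129 to 0.024 for Egr1, -0.052 to 0.118 for Npas4, -0.071 to 0.082 for Nr4a1 and -0.139 to 0.043 for Ier2. The average ran from -0.031 to 0.081 for Fos, -0.007 to 0.062 for Junb, -0.019 to 0.114 for Arc, -0.02 to 0.056 for Egr1, -0.03 to 0.057 for Nr4a1 and -0.004 to 0.087 for Ier2. Depth limits Fosb most, at 23 to 50 counts a library.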
